A study of Homo sapiens with 4 samples.

Results

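Intronic sense and TEC transcripts were transcripts of 2 annotation classes, neither typed as protein-coding, in GAP43 overexpressed and control SW620 cells. A sense intronic transcript starts and ends inside an intron of another gene on the same strand, and TEC is the annotation's class of transcribed regions that still await experimental evidence. They were chosen by their gene type and by their level, with 1 FPKM or more on average over all 4 libraries, where FPKM is fragments per kilobase of gene model scaled to the size of the library. In all, 232 of 1276 such entries met the rule, among 33845 genes in the table and 13507 genes at that mean. Of the 232, 145 were sense intronic (of 672) and 87 were TEC (of 604). Since the rule used the level itself, the levels below are a description.

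SW620 is a human colorectal cancer cell line from a lymph node metastasis. The study compared 2 libraries of GAP43 overexpressed cells, stably transfected with plasmids that carry Flag-tagged GAP43, with 2 libraries of control cells that received control plasmids, all at passages 12 to 15. GAP43 is a membrane-associated phosphoprotein of growing axons. Messenger RNA was taken with poly-T beads, primed at random and sequenced from both ends. No source used here says that the 2 libraries of a group came from separate cultures or clones, so p-values measure only the spread between these libraries, and that spread may be technical. With 2 against 2 libraries an exact permutation test could not give a p under 0.333.

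Introns are removed from a pre-mRNA by splicing and are normally degraded in the nucleus within minutes. RNA that comes from an intron can be a separate transcript with its own start, a retained intron, a pre-mRNA that ended early at a poly(A) signal inside the intron, or unspliced host RNA. Cleavage and polyadenylation use a signal, most often AATAAA, shortly before the RNA's end, U1 snRNP holds back the use of such signals inside introns, and the nuclear exosome removes many of the products. The library protocol as described does not mark the strand, so fragments of an intronic transcript, of its unspliced host and of a gene on the other strand cannot be told apart.

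The GAP43 gene was at 16.3 and 9.89 FPKM in the GAP43 libraries, against 4.40 and 4.14 FPKM in the control libraries (log2 fold change 1.38 ± 0.24 SE on the log2(FPKM + 1) scale, unadjusted p = 0.0012 by limma), which fits the labels. Recovered fragments summed to 21883137 and 17473071 in GAP43 replicates 1 and 2, against 21296930 and 20843857 in control replicates 1 and 2. GAP43 replicate 2, the shallowest library, had the most genes above 0 (27549, against 26989 in GAP43 replicate 1 and 26379 and 25581 in the controls). Of 12 colorectal epithelium markers, 8 passed the level filter. The list summed to 1812 and 1746 FPKM in the GAP43 libraries, against 1724 and 2422 FPKM in the controls. In each library EPCAM, KRT8, KRT18 and KRT19 were above 100 FPKM, and KRT20, CDX1, GPA33 and LGALS4 were below 1 FPKM. CDH17, CDX2, CDH1 and VIL1 lay between 2.37 and 53.1 FPKM. Marker lists summed to less than 10 FPKM for fibroblasts, less than 5 FPKM for leukocytes and less than 1 FPKM for endothelium in each library.

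The sequences of 4 transcripts are shown because the comparisons below turn on them: ZBTB40-IT1 and RP11-818O24.2 were among the 3 transcripts with the smallest p-values, ANKRD10-IT1 had the highest level, and RP11-140H17.2 has a poly(A) signal hexamer near its end. All are given 5′ to 3′ in the direction of the transcript, from GRCh38 at the exons of GENCODE 29. Transcripts of up to 300 bases are whole and longer ones are given by their last 150 bases. Capitals mark the hexamer AATAAA, and none of the 4 has a base in an exon of a protein-coding gene. ZBTB40-IT1 (ENSG00000237200) lies at chr1:22517474-22519708 on the plus strand, in 2 exons within ZBTB40. RP11-818O24.2 (ENSG00000280408), a TEC entry of 1 exon, lies at chr17:1352070-1352255 on the plus strand, opposite to its host YWHAE. The last 150 of 431 bases of RP11-140H17.2 (ENSG00000274093) are at chr16:69632422-69632571 on the plus strand, within NFAT5. The last 150 of 800 bases of ANKRD10-IT1 (ENSG00000229152) are at chr13:110894639-110894788 on the minus strand, within ANKRD10.
ZBTB40-IT1: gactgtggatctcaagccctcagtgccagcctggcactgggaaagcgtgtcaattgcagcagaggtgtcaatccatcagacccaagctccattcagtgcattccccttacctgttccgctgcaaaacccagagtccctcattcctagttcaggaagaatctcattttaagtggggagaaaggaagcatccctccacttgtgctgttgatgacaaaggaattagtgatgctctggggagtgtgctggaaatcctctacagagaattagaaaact
RP11-818O24.2: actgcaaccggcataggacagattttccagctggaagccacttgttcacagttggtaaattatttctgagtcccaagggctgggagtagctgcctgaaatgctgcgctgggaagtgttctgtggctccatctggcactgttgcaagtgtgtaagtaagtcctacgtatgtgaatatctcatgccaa
RP11-140H17.2: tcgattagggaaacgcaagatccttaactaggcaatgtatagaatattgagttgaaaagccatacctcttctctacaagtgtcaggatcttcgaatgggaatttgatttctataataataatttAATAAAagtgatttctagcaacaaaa
ANKRD10-IT1: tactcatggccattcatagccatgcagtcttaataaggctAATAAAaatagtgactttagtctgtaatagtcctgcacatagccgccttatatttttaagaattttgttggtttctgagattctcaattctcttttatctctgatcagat

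In RP11-140H17.2 the hexamer begins 26 bases before the end, and in ANKRD10-IT1 it begins 110 bases before the end. ZBTB40-IT1 and RP11-818O24.2 do not hold it. Across the set, AATAAA, searched on the transcript strand only, was in the last 50 bases of 88 of 224 transcripts (39.3%), against 31.6% of the entries below the level rule. In the first 50 bases of the same transcripts it was found in 1.79%. Sense intronic transcripts held it in their last 50 bases in 60 of 137 cases (43.8%), against 28 of 87 TEC transcripts (32.2%). ATTAAA, the next most used signal, searched separately in the same way, was in the last 50 bases of 7.59% of the transcripts. Here the entries below the level rule had the higher share, 10.8%. A run of at least 8 A anywhere in the transcript, a place where an oligo-T primer or bead can anneal, was present in 25.9% of them, against 23.9% of the entries below the level rule. These matches describe letters in these windows and were not tested.

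Position was read from the table, with the host taken as the protein-coding gene whose span contains the transcript. All 130 of the sense intronic transcripts that had a host lay on the host's strand, and the other 15 lay in no protein-coding span. The definition of the class and the preference for a same-strand host both favour this. Of the 87 TEC transcripts, 38 lay in a host on its strand, 13 lay in a host on the opposite strand and 36 lay outside any. Together 181 transcripts had 171 hosts, 10 of which held 2 transcripts. Sense intronic transcripts were shorter, with a median gene model of 553 bases against 1650 bases for TEC transcripts, and 68 of 137 had a single exon against 86 of 87 TEC transcripts.

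Bases of a protein-coding exon were contained in 5 of 137 sense intronic and 17 of 87 TEC transcripts, or 9.82% of both classes together, against 10.3% of entries below the level rule. Chromosomes 12, 16, 17 and 19 held 116 of the 232 transcripts, against 38.6% of all entries of the 2 classes and 23.9% of all genes tested. They were picked because they held the most transcripts, so some excess follows from the choice. Chromosomes 16 and 17 held 12.1% and 11.6% of the transcripts, against 11.8% and 10.7% of all entries of the 2 classes. For chromosomes 12 and 19 it was 14.7% and 11.6%, against 8.54% and 7.60%. Hosts of the transcripts had a median of 9.07 FPKM, against 3.19 FPKM for hosts of entries below the level rule, so the transcripts that reached 1 FPKM lay in genes of higher level.

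Levels were low for most of the set. The median transcript averaged 1.89 FPKM over the 4 libraries, against 6.05 FPKM for all genes tested. In all, 124 transcripts averaged 1 to under 2 FPKM, 82 averaged 2 to under 5 FPKM and 26 averaged 5 FPKM or more, of which 7 were at 10 FPKM or more. None was at 0 in any library, but 59 rested on fewer than 10 fragments in at least 1 library, and 97 had 30 or more fragments in every library. The median transcript rested on 38 and 46 fragments in the GAP43 libraries, against 33 and 28.5 fragments in those of the controls.

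Just inside the level rule were CTD-2382E5.6, CTD-2012K14.5 and RP11-159D12.6, which averaged 1.00013, 1.00086 and 1.003 FPKM. Just outside were CTD-2537I9.15, CTD-2013N17.6 and KB-1440D3.13 with 0.995, 0.979 and 0.976 FPKM. The rule averaged all 4 libraries, so 44 transcripts reached 1 FPKM on the mean of the GAP43 libraries but not on that of the controls, and 4 did so on the control mean only.

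ANKRD10-IT1 had the highest level, with 51.1 and 85.0 FPKM in GAP43 replicates 1 and 2, against 41.3 and 33.6 FPKM in control replicates 1 and 2. Its host ANKRD10, an ankyrin repeat protein gene, had 44.4 and 71.8 FPKM in the GAP43 libraries, against 40.5 and 38.4 FPKM in the controls. Both GAP43 libraries were above both controls for transcript and host, and GAP43 replicate 2 was the highest for both. SNHG3, a host gene of small nucleolar RNAs, was next with 21.8 and 29.9 FPKM in the GAP43 libraries, against 27.4 and 23.9 FPKM in the controls. The groups overlapped. SNHG3 is typed as a processed transcript in GENCODE 29 and contains 242 bases of exons of protein-coding genes, its host being RCC1, the exchange factor for the GTPase Ran. ENSG00000261061, a sense intronic transcript in the kinetochore gene CENPN, had 28.3 and 15.6 FPKM in the GAP43 libraries, against 28.8 and 22.2 FPKM in the controls. Its 2 GAP43 libraries differed by more than its 2 control libraries, and the groups overlapped.

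Of the 12 highest, 3 were TEC transcripts and 1 was a sense intronic transcript without a host. The TEC transcript RP11-574K11.24, outside any host, had 18.9 and 27.2 FPKM in the GAP43 libraries, against 18.8 and 21.5 FPKM in the controls. CMB9-55F22.1, another TEC transcript outside any host, had 12.7 and 22.4 FPKM in the GAP43 libraries, against 13.7 and 10.2 FPKM in the controls. The groups overlapped in both. The sense intronic entry RP11-150O12.6, on chromosome 8 with no protein-coding span around it in the table, had 12.1 and 14.5 FPKM in the GAP43 libraries, against 16.2 and 16.4 FPKM in the controls. It was 1 of the 11 transcripts with both GAP43 libraries below both controls. RP5-1180D12.1, the lowest of the 12 and a TEC transcript in the calcium channel regulator gene CRACR2A, had 9.81 and 7.61 FPKM in the GAP43 libraries, against 10.5 and 9.27 FPKM in the controls, and its groups overlapped.

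The remaining transcripts of the 12 highest were sense intronic and lay in hosts on their strand. RP11-649A18.5 in HN1 had 8.84 and 17.4 FPKM in the GAP43 libraries, against 7.58 and 6.47 FPKM in the controls, so both GAP43 libraries were higher and 1 of them stood well above the other. RP5-890O3.9, in the Integrator subunit gene CPSF3L, had 8.23 and 16.2 FPKM in the GAP43 libraries, against 8.47 and 7.11 FPKM in the controls. RP11-73M18.8, in the kinesin light chain gene KLC1, had 10.1 and 12.0 FPKM in the GAP43 libraries, against 10.4 and 7.40 FPKM in the controls. RP11-196G11.5, in the histone acetyltransferase gene KAT8, had 10.5 and 12.0 FPKM in the GAP43 libraries, against 10.7 and 6.71 FPKM in the controls. In these 3 the groups overlapped. RP11-82L18.2, in the signalling adaptor gene SHC3, had 9.001 and 9.92 FPKM in the GAP43 libraries, against 10.2 and 8.87 FPKM in the controls, with no separation of the groups.

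GAP43 overexpressed cells had higher values than controls in most of the set, by small amounts, and mostly in 1 of the 2 libraries. Of the 232 transcripts, 20 were higher at an unadjusted p under 0.05 by limma (13 sense intronic, 7 TEC), or 8.62%, and 0 were lower, against 3.05% of all genes tested that were higher and 2.84% that were lower. Both GAP43 libraries were above both controls in 82 transcripts and below both in 11, against 17.1% and 24.1% of all genes tested. The median log2 fold change was 0.28, against -0.04 over all genes tested, with 188 transcripts above 0 and 44 below. The split over all genes, 412 higher and 383 lower, depended on the scaling: with each library scaled to the same FPKM total it was 565 higher and 216 lower (28 and 0 for the transcripts), and with voom it was 266 higher and 618 lower (11 and 0 for the transcripts). Sense intronic transcripts had a median of 0.27 and TEC transcripts one of 0.30. No transcript passed at an adjusted p under 0.05 in limma or in voom on recovered fragments, which called 11 higher and 0 lower at unadjusted p, and the adjusted p of every one of the 20 was 0.692. Since the members and the level rule were chosen with results of these data known, the counts describe these libraries and do not test the set.

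By library, the median transcript differed from the mean of the controls by 0.13 in the first GAP43 library and by 0.45 in the second on the log2(FPKM + 1) scale, against 0.07 and -0.07 in control replicates 1 and 2. Over all genes tested the same medians were -0.01 and -0.07 in GAP43 replicates 1 and 2. GAP43 replicate 2 was the highest of the 4 libraries for 158 transcripts (68.1%), against 31.3% of all genes tested, and for 18 of the 20. The summed level of the set was 698 and 917 FPKM in the GAP43 libraries, against 656 and 590 FPKM in the controls. As a share of all recovered fragments this was 0.084% (replicate 1) and 0.121% (replicate 2) for GAP43 overexpressed cells, against 0.081% and 0.066% for control cells. Without GAP43 replicate 2 the median log2 fold change of the transcripts was 0.13, with 11 higher and 2 lower, against 2.41% higher and 2.83% lower of all genes. Without GAP43 replicate 1 it was 0.45, with 76 higher and 7 lower, against 11.6% higher and 18.6% lower of all genes. Without control replicate 2 there were 11 higher and 0 lower, against 2% and 0.57% of all genes, and the median was 0.22. With 1 library left in a group, these fits took the spread from the other group alone.

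**Figure D1:**
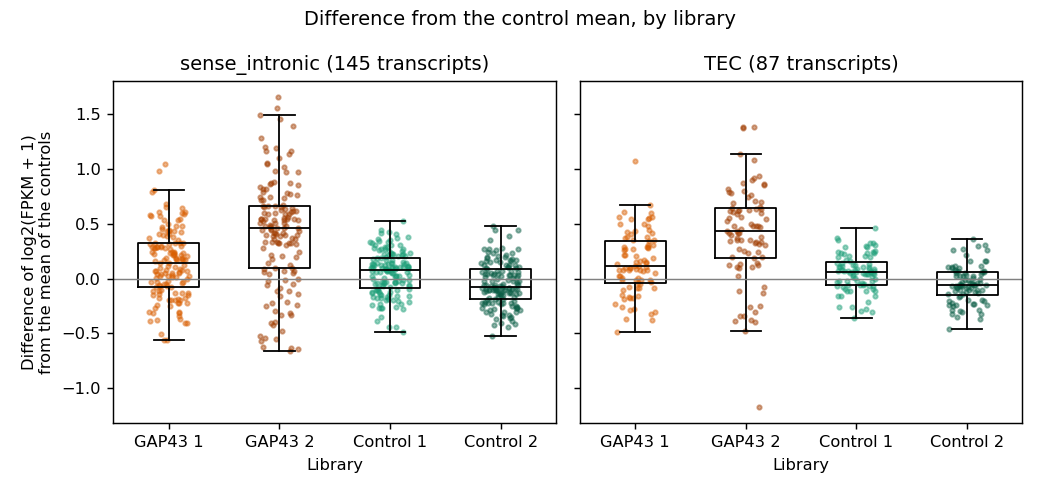
Each point is 1 transcript in 1 library, and the vertical axis is its log2(FPKM + 1) minus the mean of the 2 controls, so that the 2 control columns mirror each other. Boxes give the median and quartiles, whiskers reach to the farthest point within 1.5 box lengths, and the left panel holds the 145 sense intronic and the right panel the 87 TEC transcripts. In both classes GAP43 replicate 2 has the highest median (0.46 for sense intronic and 0.43 for TEC transcripts) and GAP43 replicate 1 a lower one (0.14 and 0.11).

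Values of the same kind were found in classes of noncoding genes outside the set. At unadjusted p under 0.05 by limma, 61 of 541 lincRNA genes were higher and 4 lower (median log2 fold change 0.21), and 55 of 669 antisense genes were higher and 6 lower (median 0.21). Protein-coding genes gave 132 higher and 312 lower of 10692, with a median of -0.08. In GAP43 replicate 2 the median differences from the controls were 0.30 for lincRNA, 0.36 for antisense and 0.23 for processed transcripts, against -0.14 for protein-coding genes. Protein-coding genes of a low level, 1 to 5 FPKM, had a median log2 fold change of 0.03, against 0.29 for the 206 transcripts of the same level. Fragments were not matched, with 1469946 over these 3698 protein-coding genes in GAP43 replicate 1, against 10737 over the 206 transcripts. The library with the highest medians of these noncoding classes was also the shallowest and listed the most genes above 0, and the part of either in the difference was not tested.

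**Figure D2:**
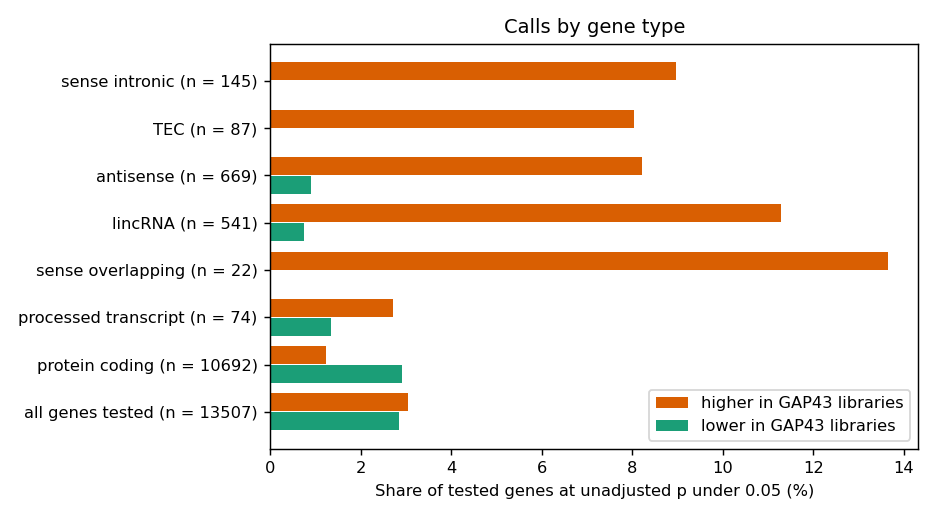
Bars give the percentage of tested genes of each type that were higher (upper bar) or lower (lower bar) in the GAP43 libraries than in the control libraries at an unadjusted p under 0.05 by limma, with the number of genes tested beside each type. Sense intronic (8.97%) and TEC (8.05%) transcripts have no lower bar, lincRNA and antisense genes have a long upper and a short lower bar, and protein-coding genes have the longer bar on the lower side.

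The level filter bore on these counts. Among the 184 transcripts at 1 FPKM or more in both group means, 12 were higher (6.52%) and 0 lower, with a median log2 fold change of 0.25. Among the 97 with 30 or more fragments in every library, 6 were higher (6.19%) and 0 lower, with a median of 0.23. Over all genes tested 3.05% were higher and 2.84% lower, and these shares were not computed under the same restrictions. Without a level filter, 1177 sense intronic and TEC entries were above 0 in some library, 53 were higher (4.5%) and 12 lower (1.02%), against 3.42% higher and 2.16% lower of all genes above 0. Their median was 0.07, against 0.02 over all genes above 0. The 945 of these below the level rule gave 41 higher (4.34%) and 12 lower (1.27%), with a median of 0.05.

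HM13-IT1 had the smallest p-value. It was at 5.73 and 8.35 FPKM in the GAP43 libraries (45 and 58 fragments), against 2.66 and 2.18 FPKM in the control libraries (20 and 15 fragments), with a log2 fold change of 1.22 ± 0.21 (SE, unadjusted p = 0.0011 by limma). Its host HM13, the signal peptide peptidase, had overlapping groups, with 16.35 and 16.995 FPKM in the GAP43 libraries, against 16.85 and 17.24 FPKM in the controls. ZBTB40-IT1, in the zinc finger gene ZBTB40, had 2.16 and 3.003 FPKM in the GAP43 libraries (13 and 16 fragments), against 0.694 and 0.379 FPKM in the controls (4 and 2 fragments), with a log2 fold change of 1.22 ± 0.25 (SE, unadjusted p = 0.0024 by limma). ZBTB40 itself had 7.51 and 8.13 FPKM in the GAP43 libraries, against 6.60 and 5.17 FPKM in the controls. For ZBTB40, as for its intronic transcript, both GAP43 libraries were above both controls, but its log2 fold change was 0.36 with an unadjusted p of 0.084 by limma. RP11-818O24.2, opposite to YWHAE, had 2.19 and 2.20 FPKM in the GAP43 libraries (9 and 8 fragments), against 0.255 and 0.835 FPKM in the controls (1 and 3 fragments). Its log2 fold change was 1.08 ± 0.27 (SE, unadjusted p = 0.0065 by limma), on few fragments. ZBTB40-IT1 and RP11-818O24.2 met the level rule only through their GAP43 mean, which favours a high GAP43 value, as did 8 of the 20 transcripts, and both drop out where 0.5 FPKM is asked of every library. The unadjusted p of HM13-IT1, whose mean was above 1 FPKM in both groups, stayed under 0.05 in each of the 13 alternatives run for it.

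Of the other transcripts in the 12 with the smallest p-values, 2 lay outside any host and were TEC. RP11-113K21.6, on chromosome 11, had 3.51 and 4.42 FPKM in the GAP43 libraries, against 1.99 and 1.95 FPKM in the controls (log2 fold change 0.74 ± 0.18 SE, unadjusted p = 0.0066 by limma). LA16c-335H7.2, on chromosome 16, had 3.91 and 7.72 FPKM in the GAP43 libraries, against 2.19 and 2.55 FPKM in the controls. Its log2 fold change was 0.96 ± 0.29 (SE), and it shares 16 bases with a protein-coding exon. In both, the control libraries were close together. The GAP43 libraries lay above them, as the choice of the 12 required.

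Intronic transcripts whose host was also higher made up a further group. RP11-956J14.1 had 1.32 and 3.20 FPKM in the GAP43 libraries, against 0.592 and 0.108 FPKM in the controls, the last being 1 fragment. It met the level rule only through its GAP43 mean, which favours a high GAP43 value. Its host SBSPON, a gene of a thrombospondin-domain protein, had 4.45 and 5.14 FPKM in the GAP43 libraries, against 2.67 and 2.29 FPKM in the controls (log2 fold change 0.74, unadjusted p = 0.0050 by limma). RP11-140H17.2 had 7.26 and 8.44 FPKM in the GAP43 libraries (69 and 71 fragments), against 5.39 and 4.56 FPKM in the controls (49 and 38 fragments). NFAT5, its host and the transcription factor of the response to osmotic stress, had 27.1 and 35.7 FPKM in the GAP43 libraries, against 21.6 and 19.9 FPKM in the controls. Transcript and host had nearly the same log2 fold change, 0.57 ± 0.17 and 0.56 (unadjusted p of NFAT5 0.033 by limma). SBSPON and NFAT5 were the only hosts of the 20 transcripts that were themselves higher at unadjusted p under 0.05.

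TEC transcripts on the strand of their host came next. AC007191.4, in the F-box gene FBXO46, had 2.95 and 2.62 FPKM in the GAP43 libraries, against 1.46 and 1.52 FPKM in the controls (log2 fold change 0.60 ± 0.19 SE). It contains 510 bases of protein-coding exon within a gene model of 2995 bases, and fragments of FBXO46 mRNA and of the transcript cannot be told apart there. RP11-401P9.7, in NKD1, a gene of an inhibitor of Wnt signalling, had 8.98 and 9.15 FPKM in the GAP43 libraries (666 and 601 fragments), against 6.56 and 5.01 FPKM in the controls (466 and 326 fragments). Its log2 fold change was 0.58 ± 0.18 (SE, unadjusted p = 0.017 by limma). NKD1 itself was far higher in level, with 257 and 242 FPKM in the GAP43 libraries, against 210 and 172 FPKM in the controls, and both GAP43 libraries were above both controls in host and transcript alike.

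RP11-167P11.2, in the Ran-binding protein gene RANBP10, had 1.83 and 2.97 FPKM in the GAP43 libraries, against 0.999 and 0.819 FPKM in the controls (log2 fold change 0.81 ± 0.25 SE). This transcript too met the level rule only through its GAP43 mean. RANBP10 had 15.1 and 17.1 FPKM in the GAP43 libraries, against 16.7 and 16.6 FPKM in the controls. AC084117.3, in LDHA, the muscle-type subunit of lactate dehydrogenase, had 2.35 and 3.99 FPKM in the GAP43 libraries (14 and 21 fragments), against 0.877 and 1.73 FPKM in the controls (5 and 9 fragments). LDHA was at 231 and 191 FPKM in the GAP43 libraries, against 218 and 318 FPKM in the controls, so the groups overlapped in the host and not in the transcript. ANKRD10-IT1, with the values given above, had a log2 fold change of 0.81 ± 0.29 (SE, unadjusted p = 0.030 by limma), against 0.51 in its host. AC084117.3 and ANKRD10-IT1 lost their side of the threshold under 4 of 13 alternatives each.

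The other 8 of the 20 had unadjusted p-values between 0.0314 and 0.0478 by limma. RP11-872J21.5 lay in PAPOLA, a poly(A) polymerase, with 2.72 and 2.30 FPKM in the GAP43 libraries, against 1.55 and 1.20 FPKM in the controls. CTC-429L19.3 lay in KEAP1, the adaptor that marks the stress factor NRF2 for degradation, with 1.91 and 2.01 FPKM in the GAP43 libraries, against 1.19 and 0.290 FPKM in the controls. RP11-45M22.2, in MPRIP, had 4.91 and 9.52 FPKM in the GAP43 libraries, against 3.89 and 3.66 FPKM in the controls. The others were RP11-335K5.3 in CHRNA3, AC092168.2 in NPAS2, ENSG00000269970 in PTGS1, RP11-165D6.1 in LRCH1 and RP11-649A18.5 in HN1. Over all 20, log2 fold changes ran between 0.57 and 1.23, and 8 of the 17 hosts in the fit had a log2 fold change below 0.

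**Figure D3:**
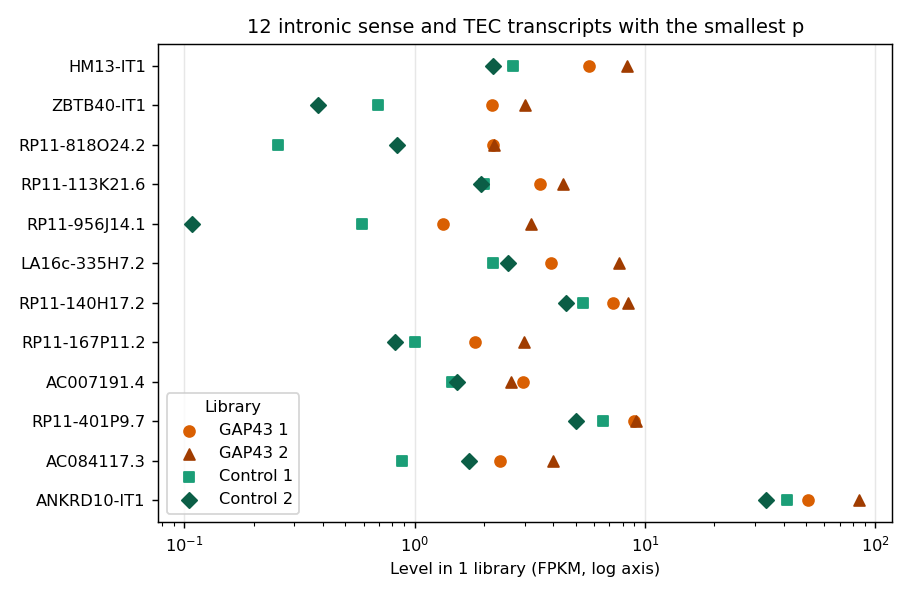
Points give the level of 12 transcripts in each of the 4 libraries in FPKM on a log axis, ordered from the smallest unadjusted p at the top. In all 12 both GAP43 libraries lie to the right of both control libraries, which the choice of transcripts by a small p without overlap required. Of the 12, 4 reached 1 FPKM on the GAP43 mean only. HM13-IT1 had 5.73 and 8.35 FPKM against 2.66 and 2.18 FPKM, and ANKRD10-IT1 had the highest levels.

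Lower values were fewer and smaller. The lowest p among the 44 transcripts with a log2 fold change below 0 was 0.0584 by limma, for RP11-4C20.4 in the receptor phosphatase gene PTPRE. It had 3.18 and 2.62 FPKM in the GAP43 libraries, against 3.83 and 4.603 FPKM in the controls. RP11-1148L6.8, a TEC transcript outside any host, had 3.74 and 1.33 FPKM in the GAP43 libraries, against 4.01 and 4.51 FPKM in the controls, and its log2 fold change of -0.66 was the lowest of the set. In both, which were chosen after their values were seen, both GAP43 libraries were below both controls.

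Against the level of the host, the median transcript stood at 27.2% of its host's mean FPKM, between 0.371% and 8384%. In all, 27 of 181 were above their host, and 44 were under 10% of it. The highest ratios belonged to transcripts with a nearly silent host, 10 of the 181 having a host below 1 FPKM. CTD-2616J11.10 had 4.31 and 3.90 FPKM in the GAP43 libraries, against 2.50 and 3.39 FPKM in the controls, while its host CTD-2616J11.11 was at or below 0.0860 FPKM in each library. CTC-303L1.2, in KIAA0825, had 1.22 and 1.002 FPKM in the GAP43 libraries, against 0.463 and 1.39 FPKM in the controls, with KIAA0825 at or below 0.0273 FPKM. RP11-335K5.3, a TEC transcript in CHRNA3, a subunit of nicotinic acetylcholine receptors, had 2.23 and 3.36 FPKM in the GAP43 libraries, against 1.17 and 1.70 FPKM in the controls, on 3 to 8 fragments. CHRNA3 had 0.276 and 0.172 FPKM in the GAP43 libraries, against 0.199 and 0.0977 FPKM in the controls, so the transcript had the higher FPKM in every library. FPKM divides fragments by the length of the gene model, which was 4765 bases for CHRNA3 and much shorter for the transcript. Fragments of transcript and host were not compared. CTD-2583A14.8 in ZNF814, RP5-855D21.3 in ZNF596 and RP11-81A1.6 in ST20 stood at 635%, 409% and 351% of hosts below 1 FPKM. Hosts above 1 FPKM were exceeded too, with RP11-73M18.8 at 447% of KLC1 and RP11-82L18.2 at 295% of SHC3.

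At the other end, ENO1-IT1 was at 0.371% of ENO1, the glycolytic enzyme enolase, which averaged 697 FPKM. Across the 171 transcripts with a host at 1 FPKM or more, Pearson's r between transcript and host was 0.13 for the log2 level and 0.25 for the log2 fold change. Transcript and host were measured in the same 4 libraries, and these values describe the pairs.

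The member minus host difference asked whether a transcript differed between the groups beyond its host. Of the 171 pairs, 8 were higher at unadjusted p under 0.05 by limma (4.68%) and 0 lower. Of all 1090 genes not typed as protein-coding and paired with a host, 6.51% were higher and 1.1% lower. The share among the 171 pairs was thus no higher than the background. The median difference of log2 fold changes was 0.30 for the 171 pairs and 0.27 for all pairs, and 139 of 171 were above 0. No pair passed at an adjusted p under 0.05 in limma (lowest 0.558) or voom, which called 20 higher and 0 lower at unadjusted p (7.43% of all pairs were higher by voom). The count of 8 was 29 without GAP43 replicate 1 (16.6% of all pairs were then higher), 2 without GAP43 replicate 2 (2.75%), 4 without control replicate 1 (6.79%) and 1 without control replicate 2 (4.04%). Of the 162 hosts themselves, 3 were higher and 3 lower (1.85% each), against 3.05% and 2.84% of all genes tested. Their median log2 fold change was -0.05, against -0.04 over all genes tested.

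RP11-818O24.2 had the largest difference from its host, 1.53 ± 0.42 on the log2 scale (SE, unadjusted p = 0.0057 by limma), but it met the level rule only through its GAP43 mean and had 1 and 3 fragments in the controls. CTC-429L19.3 in KEAP1 also met the rule through the GAP43 mean alone. YWHAE, which encodes a phosphoserine-binding adaptor protein, had 283 and 208 FPKM in the GAP43 libraries, against 310 and 355 FPKM in the controls. The host was lower and the transcript higher in both GAP43 libraries than in both controls. HM13-IT1 differed from HM13 by 1.25 ± 0.36 (SE, unadjusted p = 0.0078 by limma), nearly all of it in the transcript. For AC084117.3 and LDHA the difference was 1.18 ± 0.40, and for CTC-429L19.3 and KEAP1 it was 1.16 ± 0.44 (SE). KEAP1 had 28.5 and 19.4 FPKM in the GAP43 libraries, against 33.0 and 27.7 FPKM in the controls, and its groups overlapped.

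ENO1-IT1 had 2.74 and 3.44 FPKM in the GAP43 libraries, against 1.59 and 2.57 FPKM in the controls. ENO1 had 627 and 497 FPKM in the GAP43 libraries, against 732 and 932 FPKM in the controls, and the difference was 0.99 ± 0.37 (SE). RP1-257I20.14 had 2.05 and 2.05 FPKM in the GAP43 libraries, against 0.831 and 1.43 FPKM in the controls. NDUFA6, its host and a subunit of respiratory complex I, had 54.3 and 33.3 FPKM in the GAP43 libraries, against 59.1 and 61.9 FPKM in the controls, and the difference was 1.03 ± 0.40 (SE). In both of these pairs transcript and host were separated between the groups in opposite directions, which their choice by a small p of the difference favours.

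**Figure D4:**
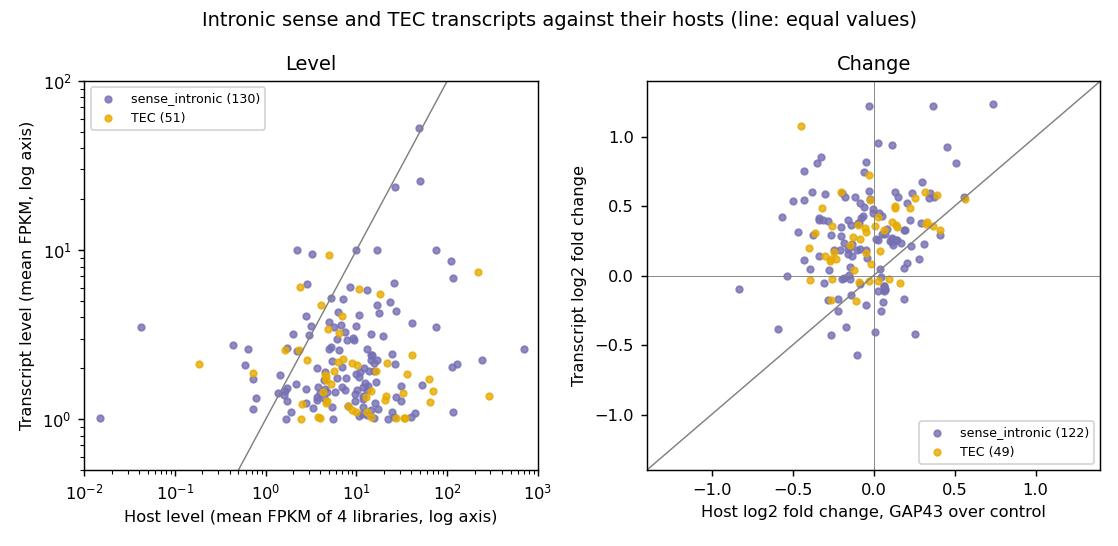
The left panel plots the mean FPKM of 181 transcripts against that of their hosts on log axes, and the right panel plots the log2 fold change, GAP43 over control, of 171 transcripts against that of hosts at 1 FPKM or more. The line marks equal values. Most points are below the line in level (27 of 181 are above it), and in change 139 of 171 lie above it, spread over hosts that were higher and lower.

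Hosts with 2 transcripts allowed both transcripts to be set side by side. In 8 of the 10 hosts both had a log2 fold change above 0, where 188 of all 232 transcripts were above 0. In HN1, RP11-649A18.5 had a log2 fold change of 0.75 and RP11-649A18.4 one of 0.54, with 3.16 and 5.57 FPKM in the GAP43 libraries, against 2.91 and 2.31 FPKM in the controls for RP11-649A18.4. HN1 itself had 78.0 and 51.6 FPKM in the GAP43 libraries, against 89.5 and 82.2 FPKM in the controls, below both controls while its 2 transcripts were above both. In TSPAN3, a tetraspanin gene, RP11-797A18.5 and RP11-797A18.6 had log2 fold changes of 0.54 and 0.55. In NARF, NARF-IT1 had 0.60 and RP13-20L14.10 had 0.49, and in RILPL1, RP11-972P1.11 had 0.94 and RP11-972P1.10 had 0.27. The 2 transcripts of KCTD13 (0.26 and 0.36), CCDC92 (0.62 and 0.26), TMCO3 (0.15 and 0.40) and SMIM7 (0.23 and 0.14) were above 0 too. KAT8 and KLC1 each held 1 transcript above and 1 below 0, RP11-196G11.5 (0.36) with RP11-196G11.4 (-0.14) and RP11-73M18.8 (0.30) with RP11-73M18.6 (-0.10). Of these 20 transcripts 1, RP11-649A18.5, was higher at an unadjusted p under 0.05 by limma, against 3.05% of all genes tested.

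Genes that make or remove such RNA were not called in either direction. Of the nuclear exosome and its cofactors, 22 were tested, 0 were higher and 0 lower at unadjusted p under 0.05 by limma, and their median log2 fold change was -0.17. The exosome core subunits EXOSC7, EXOSC5 and EXOSC4 came nearest. EXOSC7 had 7.75 and 6.98 FPKM in the GAP43 libraries, against 10.1 and 9.66 FPKM in the controls, with a log2 fold change of -0.38 ± 0.16 (SE, unadjusted p = 0.054 by limma). EXOSC5 had 19.8 and 16.4 FPKM in the GAP43 libraries, against 23.7 and 23.9 FPKM in the controls. EXOSC4 had 8.41 and 5.94 FPKM in the GAP43 libraries, against 11.4 and 8.75 FPKM in the controls. Both GAP43 libraries were below both controls in these 3 genes, as they were in 24.1% of all genes tested.

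Among 19 cleavage and polyadenylation genes, 0 were called in either direction, with a median of -0.11. CPSF3, the endonuclease that cuts the pre-mRNA, had 17.7 and 13.4 FPKM in the GAP43 libraries, against 18.8 and 20.7 FPKM in the controls (unadjusted p = 0.140 by limma). Of 10 genes of the U1 snRNP and of elongation, 0 were called, with a median of -0.11. SNRPA, a U1 protein, had 38.2 and 33.2 FPKM in the GAP43 libraries, against 44.8 and 43.7 FPKM in the controls (unadjusted p = 0.154 by limma). Of 7 noncoding RNAs tested from a list named nuclear-retained, 0 were called, with a median of 0.26. The list is mixed, since it also holds the small nucleolar RNA host genes GAS5 and SNHG1, and retention was not measured. Log2 fold changes were -0.45 for GAS5 and -0.15 for SNHG1. They were 0.34 for TUG1, 0.32 for KCNQ1OT1, 0.28 for MALAT1, 0.26 for NEAT1 and 0.05 for JPX. MALAT1 had 34.5 and 55.2 FPKM in the GAP43 libraries, against 39.3 and 32.3 FPKM in the controls, and NEAT1, the scaffold of paraspeckles, had 14.7 and 22.3 FPKM in the GAP43 libraries, against 14.8 and 15.0 FPKM in the controls. GAP43 replicate 2 was the highest library for MALAT1 and NEAT1, which were picked after their values were seen. GAS5, another host gene of small nucleolar RNAs and the gene of this list with the smallest p, had 63.8 and 58.1 FPKM in the GAP43 libraries, against 72.0 and 97.3 FPKM in the controls (log2 fold change -0.45 ± 0.23 SE, unadjusted p = 0.097 by limma). For GAS5 both GAP43 libraries were below both controls, and GAP43 replicate 2 was the lowest.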

How the data were processed

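Gene levels in 2 GAP43 overexpressed and 2 control SW620 libraries (poly-T selected RNA, 150-base paired ends) were analysed. The authors deposited FPKM values per gene and library, which scale fragments to gene length and library. The processing notes of the submitters list hg19 as the build, with TopHat2 2.0.13, Cufflinks 1.1 and Cuffdiff as tools. No source used here names the annotation release or a strand setting. GENCODE 29 held 33057 of the gene IDs, 96.4% of them with an unchanged start, so positions are GRCh38. The deposited gene lengths (another column, in bases) gave fragments back: 100% of values were whole within 0.01 fragments, totalling 17473071 to 21883137 per library. No source names molecular identifiers, so fragments need not be independent molecules.

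Genes at a mean of 1 FPKM or more were compared as log2(FPKM + 1) with limma 3.58.1 in R 4.3.3 (lmFit, eBayes with trended prior variance, 2-sided, Benjamini-Hochberg over all genes tested), and members were read from that fit. A log2 fold change is GAP43 minus control on this scale and understates changes of low genes. The member minus host test used the per-library difference of log2(FPKM + 1) over 1090 pairs. With several hosts, one on the same strand and then the shortest was taken. Sequence features used the 224 members found in GENCODE 29. Scripts were tested on simulated data. Tables used Python 3.11.15 with pandas 2.3.3 and numpy 2.4.6, and figures matplotlib 3.10.9.

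Alternatives were another pseudocount (0.1), no filter, 0.5 FPKM in every library, other scalings, a constant prior variance, voom on recovered fragments, a replicate block, leaving out each library, and other hosts. Members and lists were chosen with earlier results of these data known. Genes named were the 12 highest members, the 12 with the smallest p among those under 0.05 without overlap, the 8 highest relative to the host, their hosts, hosts with 2 members, 6 pairs with the smallest p, the entries next to the level threshold and up to 3 genes of each list. Others were named after their values were seen. The lists were the nuclear exosome, cleavage and polyadenylation, U1 snRNP and elongation, nuclear-retained RNA (with GAS5 and SNHG1), and markers of colorectal epithelium, fibroblasts, leukocytes and endothelium. Some items are not reported here.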

Additional observations from a re-analysis of the deposited data

How the results depend on the processing

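Of 240 alternative values for the named transcripts and pairs, 209 kept their direction and side of the threshold, 31 kept the direction with an unadjusted p of 0.05 or more, and 0 reversed. The named transcripts were picked for a small p without overlap of the groups, and the pairs for a small p, all in these libraries. Kept directions therefore follow in large part from that choice and are no separate support. The calls rest on 2 libraries a group, none passed an adjusted p in the fit reported, and 135 transcripts had fewer than 30 fragments in some library, which limits what can be said of any of them alone. The median over the transcripts stayed above 0 in every alternative. The cause of the changes in count below was not tested.

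Over all genes tested, against 412 higher, 383 lower and a median of -0.04, the unfiltered fit gave 1070 higher, 676 lower and a median of 0.0184, FPKM divided by its sum gave 565 higher, 216 lower and a median of 0.0586, and voom on recovered fragments gave 266 higher, 618 lower and a median of -0.0916. For the 232 transcripts, against 20 higher and 0 lower, the unfiltered fit gave 12 higher, where 3.42% of all genes were higher. At 0.5 FPKM or more in every library, 32 of 215 were higher and 1 lower, against 3.22% and 2.89% of all genes. Median-ratio scaling gave 19 higher and 1 lower, against 2.59% and 3.41% of all genes. By voom 11 were higher, against 1.97% of all genes. For FPKM divided by its sum 28 were higher, with a median of 0.35, against 4.18% of all genes. With 30 fragments or more in every library, a subset chosen after seeing the data, 6 of 97 were higher (6.19%), against 3.05% of all genes tested. For transcript minus host, against 8 higher, voom gave 20, where 7.43% of all pairs were higher. Hosts on the same strand gave 5 of 158, where 6.03% of all such pairs were higher.

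Leaving out 1 library at a time gave 270 to 1565 higher and 77 to 2513 lower over all genes, with 0 to 15 at adjusted p (the 15 without control replicate 1). For the 232 transcripts it gave 11 to 76 higher, 0 to 7 lower and medians of 0.13 to 0.45, and for transcript minus host 1 to 29 higher and medians of 0.13 to 0.51. The fewest were without control replicate 2 (11 transcripts and 1 pair) or without GAP43 replicate 2 (11 transcripts, 2 pairs), and the most were without GAP43 replicate 1.

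The labels give only a number for each replicate. Deviations of same-numbered libraries from their group means correlated at -0.16. With 2 libraries a group this is a single value, and it cannot show whether same-numbered libraries were handled together. With the replicate block, 655 genes were higher and 152 passed an adjusted p, and among the 232 transcripts 27 were higher, 1 was lower and 4 passed an adjusted p, with 6 pairs higher. The crossed pairing, added after seeing the data, gave 668 genes higher and 737 lower, 32 transcripts higher and 2 lower, 12 pairs higher, and 0 at adjusted p.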
